A study of Mus musculus with 8 samples.

Results

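Secreted phospholipases A2 were followed in the Paneth cells of mice that had been given zinc in their drinking water. They were 6 genes given by name, Pla2g2a, Pla2g2f, Pla2g1b, Pla2g5, Pla2g10 and Pla2g12a, found by matching the Ensembl gene IDs of the count table to GENCODE symbols. All 6 were among the 55414 gene IDs of the table, and the rule that picked them used names and no measured value. Earlier results of these data were nonetheless known when the genes were chosen. Paneth cells were isolated by FACS (fluorescence-activated cell sorting) from the small intestine of C57BL/6J mice, the strain given for all libraries, with no other allele named. The water group had Milli-Q (ultrapure) water for 7 days, and the zinc group had water containing 25 mM ZnSO4 for the same 7 days. Each group had 4 libraries of bulk RNA, for 8 in all, made with a stranded mRNA kit. The study describes its Paneth cell samples as sorted from individual mice, so the spread between libraries of a group includes that between animals. The age and sex of these mice were not given in the sources used here.

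Secreted phospholipases A2 cut the fatty acid from the middle position of the glycerol backbone of phospholipids. They need calcium, and a histidine and a neighbouring aspartate in the active site carry out the reaction. The products are a free fatty acid, which can be arachidonic acid, and a lysophospholipid. The group IIA enzyme, encoded by Pla2g2a, is stored in Paneth cell granules and kills Gram-positive bacteria by attacking their membrane, and it is also known in mice as a modifier of intestinal tumour number. C57BL/6 mice carry a frameshift in this gene that stops production of the active enzyme. Pla2g2f is a close relative known best from the epidermis, and Pla2g5 encodes an enzyme known from heart and macrophages. Pla2g10 encodes an enzyme made as an inactive precursor and known from the gut epithelium and sperm. Pla2g1b encodes the digestive enzyme of the pancreas, and Pla2g12a a divergent and widely expressed member.

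Pla2g2a, Pla2g2f and Pla2g5 belong to 1 cluster on chromosome 4 of GRCm39, together with Pla2g2c, Pla2g2d and Pla2g2e, over 158 kb. In genome order the genes are Pla2g2c, Pla2g2f, Pla2g2d, Pla2g5 and Pla2g2e, and Pla2g2a lies inside the span of Pla2g5 on the opposite strand. Pla2g2a (ENSMUSG00000058908) was at chr4:138559171-138562497 on the plus strand. Pla2g2f (ENSMUSG00000028749) was at chr4:138477843-138484957 on the minus strand, and Pla2g5 (ENSMUSG00000041193) at chr4:138526553-138590916 on the minus strand. The exons of Pla2g2a and Pla2g5 shared 0 bases. The other members lay apart, with Pla2g1b (ENSMUSG00000029522) at chr5:115603154-115612783 on the plus strand and Pla2g10 (ENSMUSG00000022683) at chr16:13532920-13557829 on the minus strand. Pla2g12a (ENSMUSG00000027999) was at chr3:129672211-129690319 on the plus strand. Read in the direction of transcription, every stretch of 50 bases in the annotated transcripts of the 6 genes occurred in the transcripts of that gene alone. On that strand the members therefore share no exact read of that length with a close copy. Opposite strands were not compared in this way. There, 67 exon bases of Pla2g5 overlap the noncoding RNA Gm32930, and overlaps of Pla2g10 and Pla2g12a are given below.

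The exon that holds the catalytic histidine and aspartate codons is shown for the clustered members, because it is where the reading frame of Pla2g2a ends in the C57BL/6J reference. Capitals mark the 8 codons that encode the Cys-Cys-x-x-His-Asp-x-Cys stretch in the frame of an active enzyme. The Pla2g2a exon is at chr4:138560580-138560689 on the plus strand. The Pla2g2f exon is at chr4:138480574-138480683 and the Pla2g5 exon at chr4:138528663-138528769, both on the minus strand. All are exon 4 of their transcript, and all are written in the direction of transcription.
Pla2g2a exon 4: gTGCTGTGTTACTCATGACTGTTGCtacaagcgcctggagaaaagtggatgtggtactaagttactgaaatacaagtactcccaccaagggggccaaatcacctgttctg
Pla2g2f exon 4: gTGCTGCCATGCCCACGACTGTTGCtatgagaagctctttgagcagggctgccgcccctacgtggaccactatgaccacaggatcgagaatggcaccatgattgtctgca
Pla2g5 exon 4: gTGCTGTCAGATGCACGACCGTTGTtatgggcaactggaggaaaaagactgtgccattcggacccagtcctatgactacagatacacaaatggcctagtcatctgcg
The catalytic codons began at base 2 of the exon in each of the 3 genes. Over the exon, Pla2g2a was 44.5% identical to Pla2g2f and 55.5% identical to Pla2g5.

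Read from the annotated start codon, however, Pla2g2a does not reach these codons in their own frame. The transcript Pla2g2a-202, annotated as a loss-of-function form of a protein-coding gene, met its first stop after 68 codons, at base 16 of exon 4. The same exon is written again with that stop in capitals.
Pla2g2a exon 4, stop: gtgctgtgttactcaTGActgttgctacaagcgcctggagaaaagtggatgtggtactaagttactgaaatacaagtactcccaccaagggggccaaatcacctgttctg
The stop lies across the histidine and aspartate codons. In the 5 other genes of the cluster the frame continued through the catalytic codons, for 137 codons in Pla2g5, 142 in Pla2g2e, 144 in Pla2g2d, 150 in Pla2g2c and 210 in Pla2g2f.

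The exon before it held the difference in length. Exon 3 of Pla2g2a has 146 bases, and the matching exon has 145 bases in Pla2g2f, Pla2g2d, Pla2g5 and Pla2g2c and 139 in Pla2g2e. Pla2g2d is shown beside it as the relative with the highest identity over this exon (56.8%). Capitals mark the bases between which the best alignments with those 4 genes placed the extra base of Pla2g2a, from base 113 to base 133, and the aligned stretch in Pla2g2d. The Pla2g2a exon is at chr4:138560202-138560347 and the Pla2g2d exon, number 2 in its transcript, at chr4:138505952-138506096, both on the plus strand.
Pla2g2a exon 3: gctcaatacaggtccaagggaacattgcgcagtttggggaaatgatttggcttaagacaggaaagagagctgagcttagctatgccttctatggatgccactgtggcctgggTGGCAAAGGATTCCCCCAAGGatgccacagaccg
Pla2g2d exon 2: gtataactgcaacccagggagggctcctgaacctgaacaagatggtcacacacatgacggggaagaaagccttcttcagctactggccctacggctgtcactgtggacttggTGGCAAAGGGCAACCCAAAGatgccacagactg
Removal of any 1 of the 21 capital bases of Pla2g2a gave a frame of 146 codons with the catalytic codons in frame. By frame length alone, 120 single positions gave 146 codons, 102 of them in exon 3, so neither the frame nor the alignment names a single position. The read counts below report how much of this transcript was present, and not whether an enzyme was made from it.

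**Figure D1:**
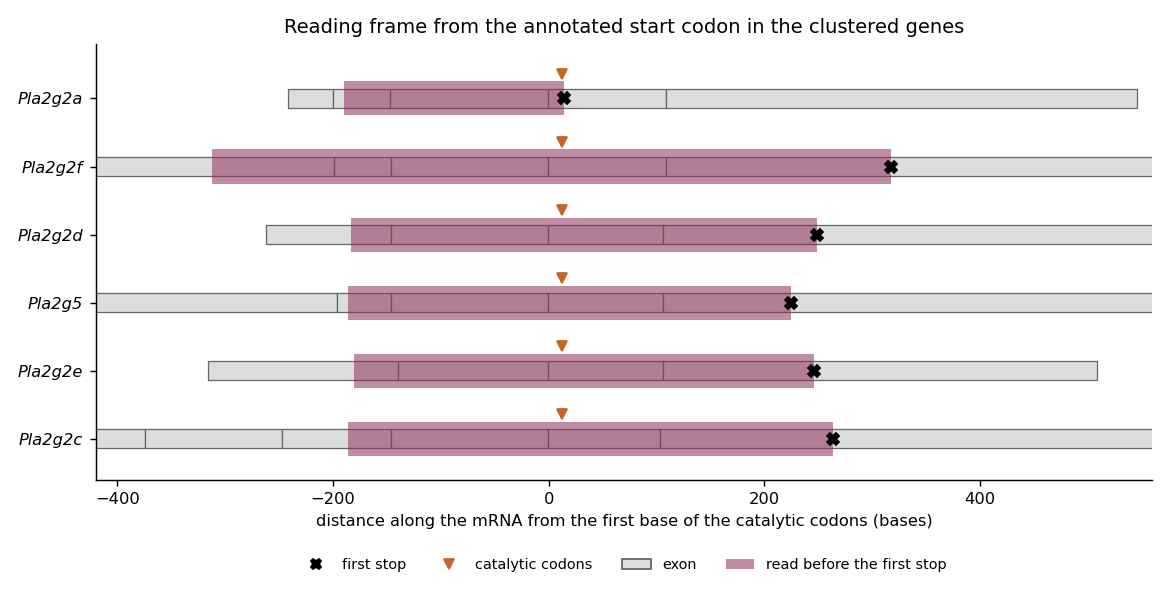
Exons (grey boxes, to scale) and the stretch read from the annotated start codon to the first stop (purple) in the 6 clustered genes, against the distance in bases from the first catalytic codon. The stop of Pla2g2a, after 68 codons, falls on the catalytic codons, whereas the 5 other frames run through them and end after 137 to 210 codons.

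The libraries held 20760764 to 24117111 counts each. CPM (counts scaled by library total) are given on the scale of edgeR's TMM factors, which ran from 0.764 to 1.23, and 3 counts in a library corresponded to 0.115 to 0.188 CPM. These limits cover counting error only. Paneth cell genes dominated every library, with 6 markers (Lyz1, Defa24, Defa30, Mmp7, Itln1 and Ang4) summing to 353831 to 690969 CPM in water and 335039 to 688762 in zinc. These ranges carry the TMM factors and are not shares of a library. As raw counts the 6 markers summed to 8638444 to 11598640 per library. The 6 goblet markers summed to 3241 to 4239 CPM in water and 3514 to 5971 in zinc, and the 4 stem cell markers to 4356 to 5728 and 3047 to 4455. Summed enterocyte markers ran from 37.9 to 58.6 CPM in water and from 52.6 to 80.6 in zinc. All 4 tested enterocyte markers were fitted higher in zinc, and 0 passed in edgeR. The largest of these fits was that of Sis, at 2.49 on the log2 scale (SE 0.65, edgeR adjusted p = 0.852). The immune, stromal and pancreatic acinar lists reached at most 1.22 CPM. The 6 enteroendocrine markers summed to 5.94 to 88.7 CPM in water and 9.20 to 42.8 in zinc. For the 5 tuft cell markers the sums were 14.0 to 120 and 17.1 to 81.7 CPM. The metallothioneins Mt1 and Mt2 and the zinc exporter Slc30a1, which report zinc inside cells, were higher in all 4 zinc libraries than in any water library. Their log2 fold changes were 3.65 (SE 0.38), 6.15 (SE 0.51) and 2.01 (SE 0.29), with edgeR adjusted p-values of 0.0259, 0.0198 and 0.0198, and each of these calls was lost on leaving out at least 1 library. In bulk samples such as these, fewer cells of a type and less RNA per cell cannot be told apart.

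Pla2g2a was the most abundant secreted phospholipase A2 transcript in every library, although its frame is broken. Its counts were 8486, 11781, 11505 and 7603 in the water libraries (replicates 1 to 4) and 6099, 9094, 12988 and 8069 in the zinc libraries. Pla2g2f came next, with 3772, 5667, 5400 and 4114 counts in water and 3788, 4588, 5664 and 4205 in zinc. Together these 2 genes held most of the family's counts, since Pla2g2a alone made up 54.7% to 64.7% and Pla2g2f 27.9% to 34.0% of the counts of the 6 members. All 6 members summed to 0.0513% to 0.0833% of the counts of a library.

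To compare levels between genes, counts were divided by exon length and scaled to TPM (transcript shares by length). On this scale, averaged over the 8 libraries, Pla2g2a reached 456 ± 105 TPM (SD) and Pla2g2f 80.2 ± 13.7 TPM, at ranks 43 and 135 of the 54749 gene IDs that had an exon length. Pla2g12a followed with 8.56 ± 0.95 TPM, Pla2g10 with 3.29 ± 2.28 TPM and Pla2g5 with 3.19 ± 1.09 TPM. Pla2g1b stood lowest at 0.264 ± 0.311 TPM. Ranked by mean log2 level, Pla2g5 came before Pla2g10, so that their order depended on the mean used.

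Neighbours in that order were compared within libraries, by the log2 ratio of counts per kilobase of exon. The level of Pla2g2a was above that of Pla2g2f by 2.49 ± 0.17 (SD, n = 8 libraries), a ratio of 5.61. Pla2g2f exceeded Pla2g12a by 3.21 ± 0.13, a ratio of 9.27, and Pla2g12a exceeded Pla2g5 by 1.49 ± 0.46, a ratio of 2.81. Pla2g10 was also above Pla2g1b, without a size being given because Pla2g1b was at 0 counts in 2 libraries, where the added offset sets the ratio. Each of these 4 differences had the same sign in 8 of 8 libraries, and the exact two-sided sign-flip permutation test gave p = 0.0078, the smallest that 8 libraries allow (adjusted over the 5 pairs, 0.0098). Because the order was set from these same libraries, that p-value restates the common sign and is no independent support for the order. The neighbours Pla2g5 and Pla2g10 did not differ beyond their spread. Their log2 ratio was 0.14 ± 0.86, Pla2g5 was the higher in 4 of 8 libraries, and the exact permutation p was 0.68. With the length of the longest transcript in place of merged exons, Pla2g5 stood above Pla2g10 by 0.68 (adjusted exact permutation p = 0.070). With the canonical transcript, a choice made after seeing the data, it stood above by 0.85 (adjusted exact permutation p = 0.031), so this pair depends on the length taken. The size of the difference between Pla2g2f and Pla2g12a depended on it too, although their order did not. It was 2.44 with the longest transcript and 2.16 with the canonical one. The merged exons of Pla2g12a have 5226 bases and its canonical transcript 2444, so its TPM also rests on this choice.

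**Figure D2:**
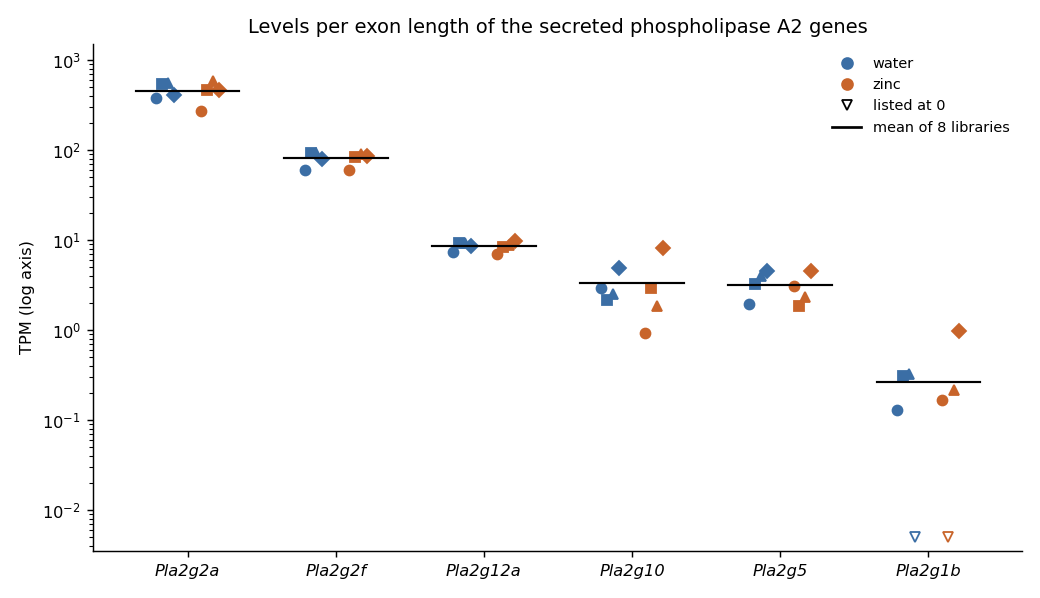
TPM (log axis) of the 6 genes in the 4 water libraries (blue) and the 4 zinc libraries (orange), with marker shapes for the replicate numbers and a line at the mean of 8 libraries. Mean levels run from 456 TPM for Pla2g2a to 0.264 TPM for Pla2g1b, the points of Pla2g10 and Pla2g5 overlap, and open triangles mark the 2 libraries in which Pla2g1b was listed at 0.

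Within the cluster the levels of adjacent genes differed widely. Pla2g2a and Pla2g2f, whose annotated starts are 74.2 kb apart, were abundant, whereas Pla2g2d, which lies between them, had 0 to 10 counts per library and a mean of 0.060 TPM. Pla2g2c, next to Pla2g2f, had 2 to 32 counts and 0.126 TPM, and Pla2g2e had 0 counts in all 8 libraries. Pla2g5, whose span surrounds Pla2g2a, had 159 to 367 counts. The 2 clustered genes above 10 TPM lie on opposite strands.

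**Figure D3:**
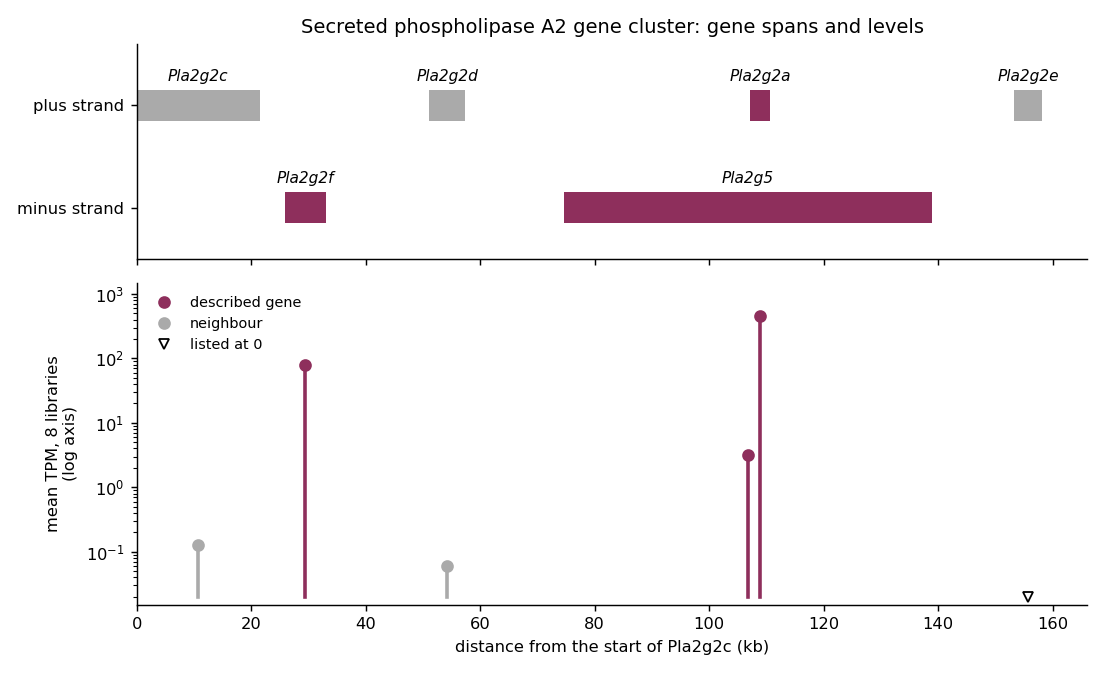
Upper panel, spans of the 6 clustered genes by strand. Lower panel, mean TPM over 8 libraries (log axis) at the middle of each gene, both against distance from the start of Pla2g2c in kb. Pla2g2a and Pla2g2f stand at 456 and 80.2 TPM, Pla2g5 at 3.19, Pla2g2c and Pla2g2d at 0.126 and 0.060, and Pla2g2e is listed at 0.

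Whether zinc supplementation was accompanied by a change of these genes was asked by comparing the zinc with the water libraries. None of the 6 members passed the test. 5 of the 6 had enough counts to be tested. Of these 5, 0 had an edgeR adjusted p below 0.05, while 10 of all 11988 genes tested (0.0834%) passed, 3 higher and 7 lower. An unadjusted edgeR p below 0.05 was found for 0 of the 5, and for 558 of the 11988. DESeq2, which tested all 6, and limma-voom, which tested 5, also gave 0 members at an adjusted or unadjusted p below 0.05. The groups overlapped for every member, and they did not overlap for 2.84% of all genes tested. The median log2 fold change of the 5 tested members was -0.06, beside 0.0085 over all tested genes.

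For Pla2g2a the water libraries had 531, 506, 487 and 290 CPM and the zinc libraries 362, 439, 513 and 313 CPM. Means were 453 ± 110 CPM in water and 407 ± 87.8 CPM in zinc (SD, n = 4 libraries each), and the highest zinc library lay above 3 of the 4 water libraries. In edgeR, zinc differed from water by -0.16 on the log2 scale (SE 0.19, adjusted p = 0.998), with a 95% interval from -0.62 to 0.31.

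Pla2g2f had 236, 243, 228 and 157 CPM in water and 225, 222, 224 and 163 CPM in zinc. Replicate 4 was the lowest library in both groups, and the 6 others lay within 222 to 243 CPM. With means of 216 ± 39.9 and 208 ± 30.2 CPM, edgeR gave a log2 difference of -0.05 (SE 0.15, adjusted p = 0.998) and a 95% interval from -0.41 to 0.31. Per library, the count of Pla2g2a was 1.61 to 2.29 times that of Pla2g2f, on average 2.08 ± 0.17 in water and 1.95 ± 0.28 in zinc (SD).

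Pla2g12a, the broadly expressed member, had 59.1, 49.7, 46.4 and 34.98 CPM in water and 54.3, 45.7, 44.5 and 37.9 CPM in zinc. The edgeR difference was -0.06 on the log2 scale (SE 0.15, adjusted p = 0.998), and the interval ran from -0.42 to 0.31. Pla2g5 had 11.7, 12.9, 14.8 and 14.0 CPM in water but ranged from 7.68 to 18.1 CPM in zinc, where replicates 2 and 3 lay below and replicate 1 above all water libraries. For Pla2g5 edgeR estimated -0.16 on the log2 scale (SE 0.22, adjusted p = 0.998), with an interval from -0.70 to 0.38.

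Pla2g10, the precursor-borne enzyme of gut epithelium, varied most among the tested members. It had 121, 87, 96 and 168 counts in water and 39, 106, 76 and 267 counts in zinc, or 2.32 to 10.4 CPM in the latter, so that the lowest and the highest libraries were both zinc libraries. The edgeR estimate of -0.05 on the log2 scale (SE 0.44, adjusted p = 0.998) had an interval from -1.12 to 1.03, the widest among the tested members. This estimate near 0 depended on zinc replicate 4, without which it was -0.64 (SE 0.32). The library with most Pla2g10, zinc replicate 4, also had the highest summed goblet (5971 CPM) and enterocyte (80.6 CPM) markers, whose part in this value was not tested. The single markers did not all peak there. Muc2, Fcgbp and Zg16 did, but Tff3 and Spdef were highest in water replicate 1 and Clca1 in water replicate 4. Of the enterocyte sum, 71.1 CPM came from Fabp2, and the other enterocyte markers were highest in other libraries. Across the 8 libraries Pla2g10 correlated with the summed goblet markers with r = 0.78, a description over libraries that share their scaling. For the other tested members r was -0.51 (Pla2g2a), -0.68 (Pla2g2f), -0.46 (Pla2g12a) and 0.04 (Pla2g5). The exons of Pla2g10 also overlap those of the antisense transcript Pla2g10os over 179 bases (10.6% of its exon bases), which had 3 to 18 counts per library. Since the strand setting of the counting was not given in the sources used here, reads of the shared bases may be uncertain in origin. Likewise 1049 exon bases of Pla2g12a (20.1%) lie opposite the noncoding RNA Gm46825, which had no row of its own in the counts.

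Pla2g1b was close to the limit of detection, with 3, 7, 7 and 0 counts in water and 4, 0, 5 and 18 counts in zinc, and was left out of the edgeR test by the filter on low counts. Its mean was 0.196 ± 0.141 CPM in water and 0.283 ± 0.295 CPM in zinc (SD, n = 4 libraries each). A count of 0 allows up to 3 counts. The 6 pancreatic acinar markers were at 0 in the library with 18 counts, and 4 of them were at 0 in all libraries.

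**Figure D4:**
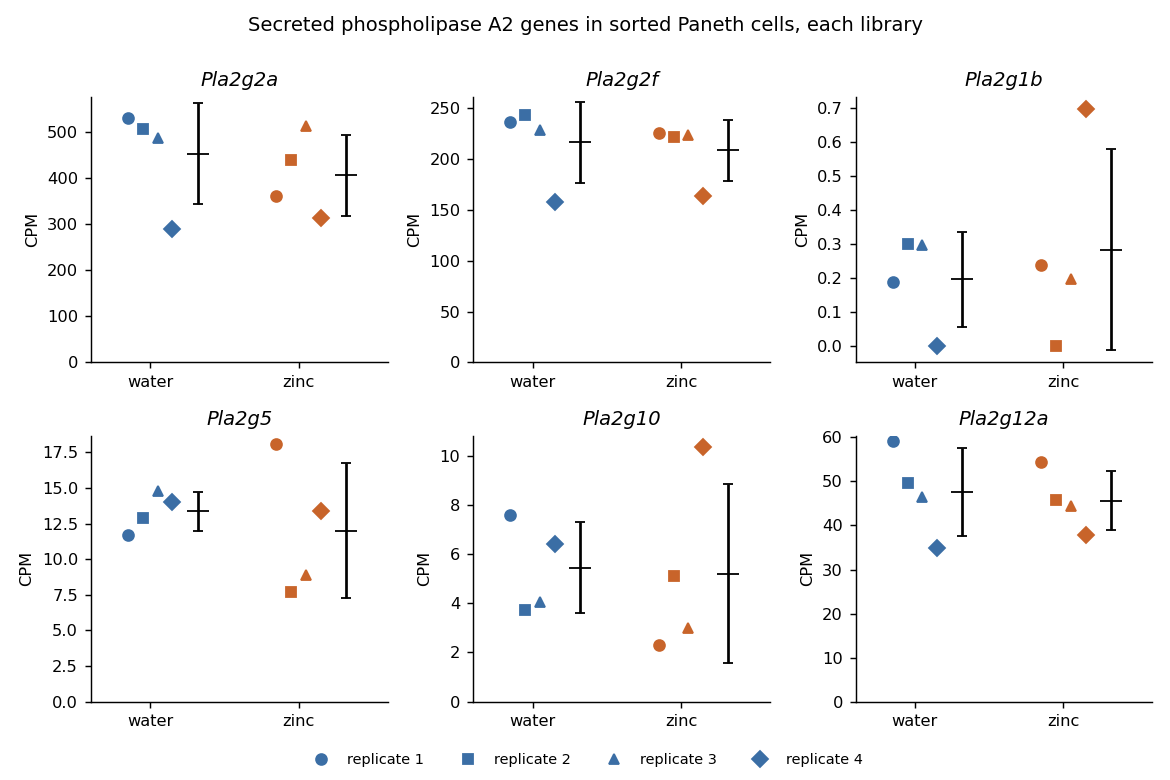
CPM of each member in each library of the water and zinc groups, with one marker shape per replicate number, and the mean and SD of each group beside the points. The groups overlap in all 6 panels, Pla2g10 and Pla2g1b spread most among the zinc libraries, and replicate 4 has the lowest CPM of Pla2g2a, Pla2g2f and Pla2g12a in both groups.

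The spread within groups was set beside that of all tested genes, whose median coefficient of variation was 17.4% in water and 14.6% in zinc. Pla2g2f (18.4% and 14.5%) and Pla2g12a (20.9% and 14.8%) were near these medians, and Pla2g2a was above them at 24.3% and 21.6%. Pla2g5 varied by 10.1% in water and 39.5% in zinc, and Pla2g10 by 34.0% and 70.01%. The order of libraries depended on the scaling. On TMM-scaled CPM the lowest values of Pla2g2a, Pla2g2f and Pla2g12a in both groups were in replicate 4, whose TMM factors of 1.21 and 1.23 were the highest. On TPM, which carries no TMM factor, the lowest Pla2g2a, Pla2g2f and Pla2g12a values were in replicate 1 of each group (for Pla2g2a 380 TPM in water and 267 TPM in zinc), the libraries with the highest share of Defa defensin counts at 39.9% and 38.5%.

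Over the 8 libraries, log2 CPM of Pla2g2a and Pla2g2f correlated with Pearson r = 0.89, and Pla2g2f and Pla2g12a with r = 0.87. Pla2g2a and Pla2g12a had r = 0.69, whereas Pla2g2f and Pla2g10 had r = -0.60. These values are descriptions over 8 libraries that share their TMM factors. Among all tested genes, the highest correlations with Pla2g2a were those of Adap2 (r = 0.97), Ell2 (0.96) and the complement gene C2 (0.96). The 3 closest to Pla2g2f were Bcl2l2 (0.98), Bin1 (0.97) and Jak1 (0.95). Pla2g12a was closest to Rab3d (0.98), a small GTPase of secretory granules, then Tdpoz9 (0.98) and Rab3a (0.97). Pla2g5 was closest to Copg2 (0.95), Rnf34 (0.94) and 4921524J17Rik (0.93), and Pla2g10 to Xpnpep2 (0.96), Pcsk7 (0.96) and Ano7 (0.95). Each set is the top of 11988 genes over 8 points.

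Promoter windows were searched for the core of the metal response element, the motif to which the zinc sensor MTF1 binds, written as TGCACNC or TGCGCNC on either strand. Windows of RefSeq (GRCm38.p6) from 250 bases before to 50 bases after a gene's start were used. The core was present in 25.7% of all 32851 windows. It was found 3 times in the window of Mt1, 4 times in that of Mt2 and 2 times in that of Slc30a1, and 0 times in the 6 windows of Pla2g2f, Pla2g1b, Pla2g5, Pla2g10 and Pla2g12a. Pla2g2a had no window. A match or its absence describes only the letters in these windows.

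The genes that supply, compete with or use the products of these enzymes were described from 4 further lists, of which 0 genes passed the test in either direction in edgeR with its low-count filter, DESeq2 or limma-voom. Without the filter edgeR called 1, Pla2g4c. At an unadjusted p below 0.05 there was 1 of 35 tested list genes in edgeR, 2 of 46 in DESeq2 and 0 of 35 in limma-voom. Over all genes, 558 of 11988 had an unadjusted edgeR p below 0.05. Of the 7 other secreted members and their receptor, 4 had counts and 1 was tested. This was Pla2g12b, a catalytically inactive relative of Pla2g12a, at -0.37 on the log2 scale (SE 0.39) with an edgeR adjusted p of 0.998. The receptor Pla2r1, Pla2g2e and Oc90 had 0 counts in every library.

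Of 18 intracellular and other phospholipases A2, 10 were tested and had a median log2 fold change of -0.07. Within this group Pnpla2, a triglyceride lipase, and Prdx6, a peroxiredoxin with phospholipase activity, had the highest levels per length at 15.04 ± 4.57 and 10.03 ± 2.56 TPM (SD, n = 8 libraries). The calcium-dependent cytosolic enzyme Pla2g4a was present at 314 to 606 counts in every library. Pla2g4c, another cytosolic phospholipase, had 1, 5, 12 and 42 counts in water and 0, 2, 0 and 0 in zinc, with overlapping groups, and did not pass the low-count filter. Without the filter its edgeR log2 difference was -4.41 (SE 1.14, adjusted p = 0.039), and DESeq2 gave an adjusted p of 0.179. Among the genes that passed the filter, the smallest p-values belonged to Pnpla8 (log2 fold change -0.18, SE 0.12), Pnpla2 (-0.15, SE 0.12) and Pnpla7 (0.14, SE 0.17), none of which passed.

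Of 22 genes that turn arachidonic acid into prostaglandins and leukotrienes or receive these signals, 10 were tested, with a median of -0.02. Ptgs1, the constitutive cyclooxygenase, had 30, 52, 66 and 94 counts in water and 50, 87, 78 and 163 in zinc, and differed by 0.65 on the log2 scale (SE 0.30). Its unadjusted edgeR p was 0.043 and the adjusted one 0.998. The groups overlapped, and this was the 1 gene of the 4 lists with an unadjusted edgeR p below 0.05. The inducible cyclooxygenase Ptgs2 had 2 counts in 1 zinc library and 0 in the 7 others. Hpgd, which inactivates prostaglandins, had the highest level of the list at 38.2 ± 5.10 TPM, followed by Ptges3 at 9.41 ± 1.79 TPM (SD, n = 8 libraries). Ptges2, a prostaglandin E synthase, and Lta4h, an enzyme of leukotriene synthesis, differed by 0.16 (SE 0.15) and 0.11 (SE 0.11) on the log2 scale.

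All 14 genes of lysophospholipid reacylation and removal were tested, with a median of 0.04. Acsl5, an acyl-CoA synthetase of the intestine, had a log2 fold change of 0.22 (SE 0.11) and the highest level of the list at 13.0 ± 4.47 TPM, with the lysophospholipase Lypla2 next at 9.89 ± 2.57 TPM (SD, n = 8 libraries). Acsl3 had a log2 fold change of -0.19 (SE 0.17). For Lpcat2 the fitted 0.83 (SE 0.59) rested on zinc replicate 4, which had 155 counts against 17 to 46 in the 7 other libraries, and without that library the value was -0.33.

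**Figure D5:**
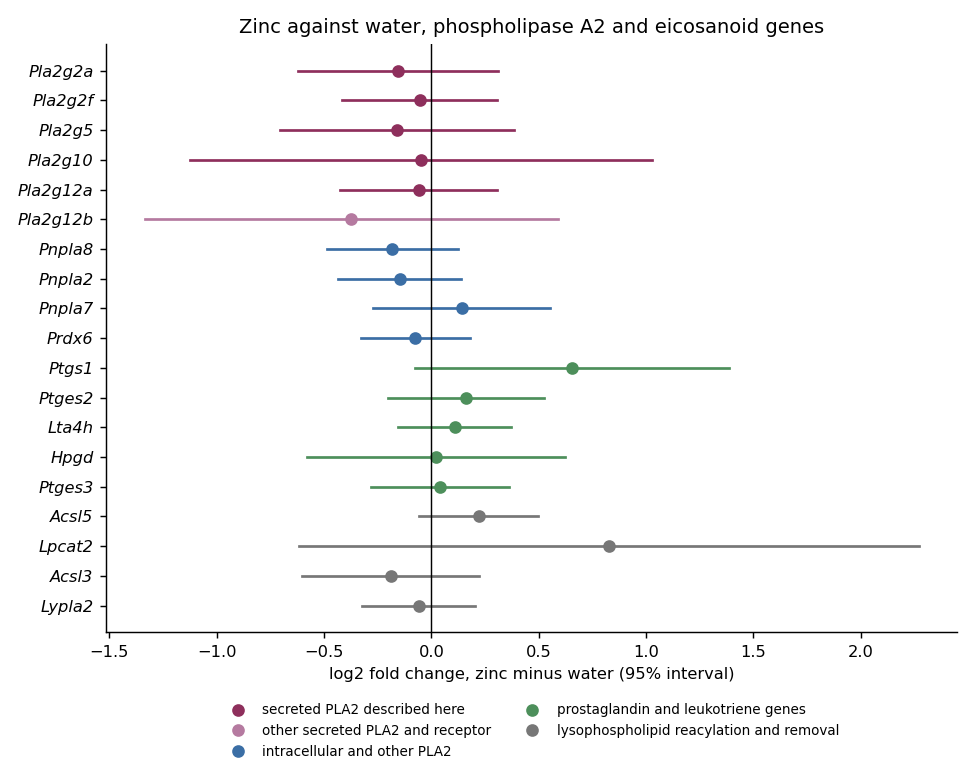
Log2 fold changes of zinc over water with 95% intervals (t distribution with the 6 residual degrees of freedom, wider than the edgeR test, which borrows spread across genes) for the 5 tested members and the named tested genes of the 4 other lists, coloured by list. Every interval includes 0, and the member intervals run from the narrowest, -0.41 to 0.31 for Pla2g2f, to the widest, -1.12 to 1.03 for Pla2g10.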

How the data were processed

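Bulk RNA of sorted Paneth cells was measured in 8 libraries, 4 per group, grouped by the submitters' titles. The authors deposited 1 table of raw read counts per Ensembl gene ID, with no normalization. The submitters' processing notes name mm39, FastQC 0.12.0, STAR 2.7.0a and DESeq2. The counting program, its annotation, its strand setting and the treatment of multi-mapped reads were not given in the sources used here. Symbols, exon lengths and sequences came from GENCODE M39 on GRCm39, which matched 54749 of 55414 IDs.

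Counts were tested with edgeR 4.0.16 in R 4.3.3 (filterByExpr with a minimum count of 10, TMM, robust quasi-likelihood F test), with Benjamini-Hochberg adjustment over 11988 genes and a threshold of 0.05. Each SE was obtained by dividing the size of the log2 fold change by the root of F. TPM used merged exon lengths. Level ratios used counts per kilobase plus 0.5, and correlations log2 CPM with a prior count of 2. DESeq2 1.42.0 and limma 3.58.1 gave alternatives, and the fit was tested on simulated data. Other alternatives were RLE scaling, library totals, other filters, the replicate block, leaving out Defa genes and leaving out each library.

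The members, the 4 lists and the markers were chosen with earlier results of these data known. The genes named were the 6 members, and from each list those called, the 3 with the smallest p and the 2 with the highest counts per kilobase. For each member with at least 1 CPM, the 3 most correlated genes were named. Pla2g4a, Pla2g4c, Ptgs2, and the cluster genes and list genes at or near 0 were named after their values were seen.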

Additional observations from a re-analysis of the deposited data

Results flagged for a closer look

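Pla2g2f in zinc replicate 4 lay far from the 3 other zinc libraries, at 163 CPM beside 225, 222 and 224 CPM, the gap being 0.944 of the group's range. It was 1 of 14 groups of values examined in this way, and chance alone sets apart about 1 group in 20. Water replicate 4 was low as well, at 157 CPM. As CPM of the library total, without TMM factors, zinc replicate 4 had 199.7 and the lowest zinc library was replicate 1 with 174, so that the gap is seen on the TMM scale, on which replicate 4 had the highest factor (1.23).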

How the results depend on the processing

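The count of members past the threshold stayed at 0 in each alternative run, and no adjusted p of a tested member was below 0.765. Of 80 alternative fold changes of the tested members, 70 kept their sign. Library totals alone gave 0.0666 for Pla2g10 and -0.0169 for Hpgd, for which limma-voom gave -0.0157 and the replicate block -0.0163. Leaving out 1 library gave ranges that crossed 0 for Pla2g2f (-0.184 to 0.0427), Pla2g5 (-0.42 to 0.0032), Pla2g10 (-0.64, without zinc replicate 4, to 0.18), Pla2g12a (-0.186 to 0.0596), Hpgd (-0.25 to 0.16), Ptges3 (-0.0323 to 0.116) and Lpcat2 (-0.33 to 1.08), whereas Pla2g2a stayed between -0.32 and -0.05. The cause of these turns was not tested. Without the low-count filter 1 gene of the other lists passed, Pla2g4c (edgeR adjusted p = 0.039). Pla2g5 over Pla2g10 ranged from -0.0862 (without zinc replicate 1) to 0.28 on leaving out 1 library, and was 0.68 with longest and 0.85 with canonical transcript lengths. Pla2g2f over Pla2g12a was 3.21 with merged exons, 2.44 with longest and 2.16 with canonical transcript lengths. Without water replicates 2 or 3 or zinc replicate 2, 1, 4 and 3 genes passed in all, against 10. DESeq2 called 36 genes and edgeR without the filter 66. On leaving out 1 library, adjusted p-values reached 0.159 for Mt1, 0.0906 for Mt2 and 0.0862 for Slc30a1.

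No source says that a replicate number marks a shared batch or litter. Same-numbered deviations correlated at 0.233, 5.5e-05, 0.127 and 0.263, of which 3 of 4 exceed 0.1. Water replicate 2 was near 0 with every zinc library (-0.0036 to 0.0025), so its value cannot decide whether the numbers are pairs. With no batch named, the numbers were not taken as pairs in the main fit. Same-numbered libraries were nonetheless alike in TMM factor (0.764 and 0.775, 1.02 and 0.998, 1.07 and 1.05, 1.21 and 1.23 for replicates 1 to 4). The replicate block gave smaller SEs for the 5 tested members, from 0.104 in place of 0.191 for Pla2g2a to 0.212 in place of 0.223 for Pla2g5. With the replicate block 32 genes passed in edgeR, and 0 members, while Mt1 and Mt2 did not pass (adjusted p = 0.379 and 0.241). With at least 20760764 counts per library, Pla2g1b (0 to 18 counts) was the member whose depth limited a comparison.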

Other observations

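Alox5ap, Alox5, Ltc4s and Hpgds, 4 genes of leukotriene or prostaglandin D synthesis picked out after their values were seen, varied with the tuft cell markers from library to library. Alox5ap, the activator of the lipoxygenase that starts leukotriene synthesis, had 22, 78, 131 and 369 counts in water and 21, 112, 181 and 114 in zinc. Alox5 had 19, 24, 64 and 120 counts in water and 8, 40, 77 and 37 in zinc. Water replicate 4 was highest for both genes and for the 5 summed tuft markers (120 CPM, against 14.0 CPM in water replicate 1). With the summed tuft markers on the log2 scale, over 8 libraries, r was 0.97 for Alox5ap, 0.87 for Alox5, 0.82 for Ltc4s and 0.96 for Hpgds. For 2 other genes of the same list it was 0.58 (Ptgs1) and 0.49 (Lta4h, which ranged over 55.7 to 71.4 CPM). Among the tested members it was -0.43 for Pla2g2a, -0.66 for Pla2g2f, -0.92 for Pla2g12a, -0.27 for Pla2g5 and 0.19 for Pla2g10. These correlations are descriptions over libraries that share their scaling.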
